A study of Mus musculus with 12 samples.

Results

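The interferon response and MHC class I genes are a set of 37 genes described here in pituitary tumors of POMC KO mice and in normal pituitary. The set is a list of gene names. A gene was read from the probe sets (groups of short array probes for 1 transcript) whose annotation names that gene alone, and the probe set with the highest mean over the 12 arrays stood for it. Of the 37 genes, 35 had such a probe set and 34 passed the filter on low values, against 12305 tested genes of 18193 on the array. Mx1 did not pass the filter, with log2 signals of 3.79 to 4.05 in all samples. Isg15 was read only by a probe set shared with another gene, and no probe set naming Ifi44 alone was used.

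The arrays were made to set pituitary tumors of mice with a disrupted pro-opiomelanocortin gene beside human nonfunctioning adenomas, with normal mouse pituitary as the reference for the mouse tumors. Spontaneous pituitary tumors came from mice with a homozygous knock-out of POMC (2 arrays) and from mice with a heterozygous knock-out (8 arrays), and normal mouse pituitary gave 2 arrays. No mouse was treated, the knock-out was inherited, and the normal pituitary RNA was described as pooled. Ages and sexes of these mice are not given in the sources used here. The tissue was whole tumor or gland, so fewer cells of a type and less RNA per cell cannot be told apart.

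Tumor arrays came in 5 pairs of nearly equal values, with correlations of 0.997 to 0.9978 and at most 4 probe sets over 2-fold apart in a pair. The 2 normal arrays correlated at 0.9929, with 309 probe sets over 2-fold apart. Arrays of different heterozygous pairs correlated at 0.9862 to 0.9926. Only tumor arrays could be paired, so the 2 normal arrays were counted as 2 samples by rule, and they may come from 1 pool. Each pair was averaged and counted as 1 sample, which left 1 homozygous sample, 4 heterozygous tumors (named by their arrays 1-2, 3-4, 5-6 and 7-8, the order in which their values are given) and 2 normal samples. Nothing in the labels says that samples of a group came from separate mice, so p-values measure the spread between these samples, and the single homozygous sample was assumed to vary like the other groups. The targeted gene matched the labels, with a Pomc log2 signal of 7.18 in the homozygous sample, 15.15 to 15.30 in heterozygous tumors, and 15.08 and 15.11 in normal pituitary.

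Interferons are secreted proteins that cells release on sensing viral nucleic acid. Type I interferon acts through a complex holding STAT2 and IRF9 that binds the interferon-stimulated response element (ISRE), and genes induced by interferon gamma often carry another element, the gamma-activated site (GAS). MHC class I molecules carry peptides, cut by the proteasome and pumped by the TAP transporter, to the cell surface, where T cells read them, and interferons raise their expression.

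Promoter sequence is shown for the genes on which the results below turn, to mark where the letters of these elements occur. Windows of 250 bases upstream of each RefSeq start (GRCm38.p6) were searched on both strands for the ISRE letters, GAAA followed by any 2 bases and GAAA, and for the GAS letters, TTCNNNGAA with N for any base. A window was given for 31 of the genes, and 11 of them (35.5%) held an ISRE match, against 3.46% of 27025 genes. A GAS match was in 8 of the 31 (25.8%), against 8.13% of all genes. Neighbouring ISRE matches can share letters, as in Bst2, Gbp3, Irgm1 and Isg15, and in Bst2 the GAS match overlaps an ISRE match. Capitals mark the matches, and the sequences run 5′ to 3′ on the strand of the gene. A match is a description of letters and not a shown binding site.
Ifit1, chr19:34640765-34640833, plus strand: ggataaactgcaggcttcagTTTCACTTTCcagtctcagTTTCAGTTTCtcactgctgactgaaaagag
Ifit3, chr19:34583353-34583436, plus strand: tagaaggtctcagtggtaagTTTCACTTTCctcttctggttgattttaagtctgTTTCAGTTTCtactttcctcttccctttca
Ifit2, chr19:34550444-34550481, plus strand: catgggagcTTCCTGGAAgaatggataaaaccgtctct
Irf8, chr8:120736167-120736233, plus strand: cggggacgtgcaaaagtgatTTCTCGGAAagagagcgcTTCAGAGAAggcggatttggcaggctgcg
B2m, chr2:122147528-122147577, plus strand: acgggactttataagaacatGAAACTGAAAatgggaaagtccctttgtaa
Gbp2, chr3:142620584-142620633, plus strand: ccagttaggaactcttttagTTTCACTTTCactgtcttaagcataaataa
Ifit1 and Ifit3 each held 2 ISRE matches, B2m and Gbp2 1 each, Irf8 2 GAS matches, and Ifit2 a GAS match and no ISRE match in its windows. Irf8 and Ifit2 are shown as the called genes of the set, Ifit1 and Ifit3 as relatives of Ifit2, B2m as the shared chain of MHC class I, and Gbp2 as the gene that varied most among heterozygous tumors.

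Most of the set did not pass the test in either genotype. A gene was called at an adjusted p under 0.05 (limma, Benjamini-Hochberg over all tested probe sets) with a fold change over 2. In the homozygous sample over normal pituitary, 0 of 34 genes were called, against 2.73% of all tested genes, and at an unadjusted p under 0.05, 4 were higher and 1 lower. In heterozygous tumors over normal pituitary, 2 genes were called, both higher (Irf8 and Ifit2), against 10.1% of all tested genes in either direction, 5.57% higher and 4.5% lower. At the adjusted p alone, 3 genes were higher there (Irf8, Ifit2 and Rtp4) and 3 lower (B2m, Oasl2 and Isg20), against 12.7% and 11.5% of all tested genes. In the homozygous sample over heterozygous tumors, 0 were called, against 0.276% of all tested genes, and at an unadjusted p under 0.05, 0 were higher and 2 lower (Ifit1 and Ifit2).

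The centre of the set lay close to that of all genes. Its median log2 fold change was 0.0659 in the homozygous sample and 0.147 in heterozygous tumors over normal pituitary, against -0.0278 and 0.00167 over all tested genes. Homozygous over heterozygous, the medians were -0.0335 for the set and -0.0308 for all tested genes. The 95% interval of the change lay within 2-fold either way for 22 of 34 genes in the homozygous sample, for 22 in heterozygous tumors and for 24 between the genotypes. Its median half-width was 0.62, 0.44 and 0.57 log2 units in those comparisons, so a change near 1.5-fold in a single gene was often not detectable with these samples.

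Individual genes moved both ways. All 4 heterozygous tumors were above both normal samples for 9 genes (H2-K1, Stat2, Irf8, Irf9, Ifit2, Trim25, Rsad2, Rtp4 and Irgm1), against 25.4% of all tested genes. All 4 were below both for 6 genes (B2m, Ifih1, Oasl2, Isg20, Gbp3 and Igtp), against 25.6% of all tested genes. The homozygous sample was above every other sample for 5 genes (H2-K1, H2-D1, Ifit3, Gbp2 and Gbp3), against 7.77% of all tested genes, and below every other sample for Irf9 and Ifit1, against 12.9%.

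**Figure D1:**
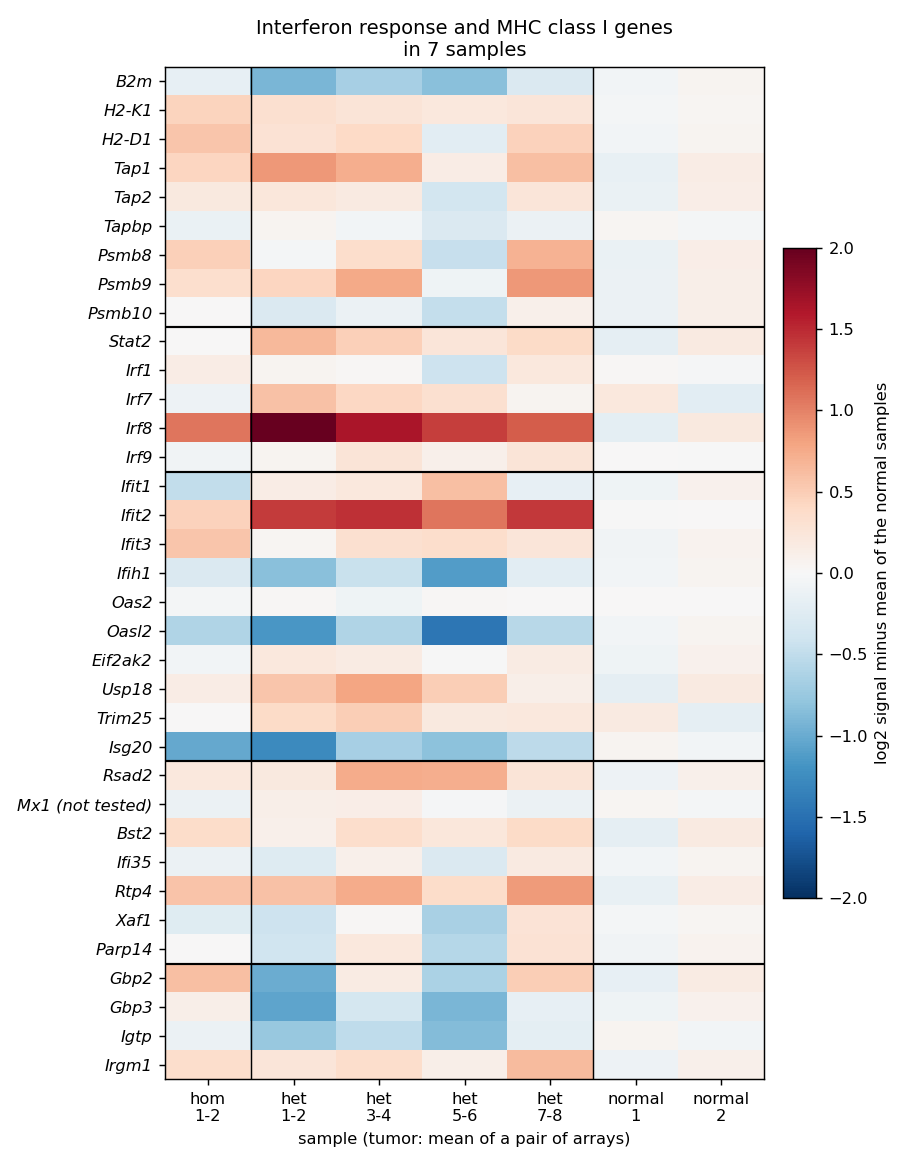
Log2 signal of each gene minus its mean in the normal samples (colour, blue lower and red higher), for the homozygous sample, the 4 heterozygous tumors and the 2 normal samples, with black lines between role groups. Irf8 and Ifit2 are red in all 4 heterozygous tumors, Isg20 is blue in every tumor sample, and tumors 1-2 and 5-6 are bluer than 3-4 and 7-8 in the GTPase rows at the bottom.

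**Figure D2:**
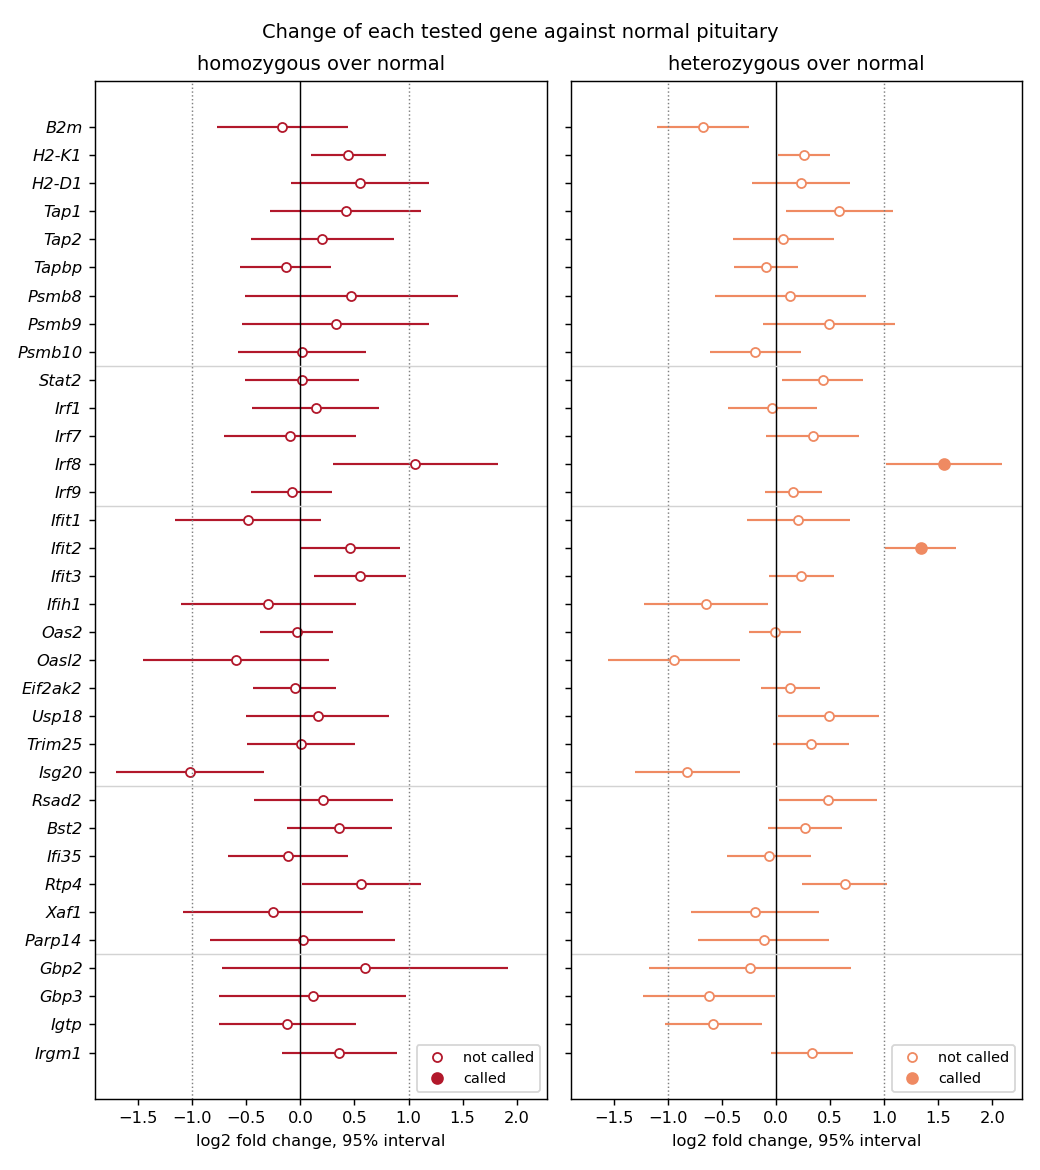
Log2 fold change of each tested gene against normal pituitary, in the homozygous sample (left) and in heterozygous tumors (right). Lines are 95% intervals, filled points are called genes, and dotted lines mark a 2-fold change, which the points of Irf8 and Ifit2 pass on the right.

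Among the 5 transcription factors, Irf8 was the largest change in the set. Irf8 directs the development of macrophages and other myeloid cells and is induced by interferon gamma. Its log2 signal was 6.79 in the homozygous sample, 7.72, 7.35, 7.11 and 6.93 in heterozygous tumors, and 5.53 and 5.92 in normal pituitary. Every tumor sample was above both normal samples, and the heterozygous tumors were all above the homozygous sample. Over normal pituitary, the change was 1.55 ± 0.23 on the log2 scale in heterozygous tumors (SE, limma adjusted p = 0.00392) and 1.06 ± 0.33 in the homozygous sample (adjusted p = 0.147). A second Irf8 probe set gave 1.14 in heterozygous tumors (adjusted p = 0.00192) and 0.79 in the homozygous sample (adjusted p = 0.0927). The normal values lie near the median of all values on the arrays (5.74), the threshold of the filter.

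Markers of macrophages moved in the same samples as Irf8. Of 14 tested macrophage and microglia markers, 2 were called higher in the homozygous sample and 10 in heterozygous tumors over normal pituitary, and 0 were called lower. Of all tested genes, 2.73% were called in either direction in the homozygous sample, and 5.57% were called higher in heterozygous tumors. The summed linear signal of the 14 markers was 5254 in the homozygous sample, 9162, 11540, 9072 and 6730 in heterozygous tumors, and 2033 and 2444 in normal pituitary. Lyz2, a lysozyme of macrophages, had log2 signals of 10.39 in the homozygous sample, 11.83, 12.10, 11.71 and 11.04 in heterozygous tumors, and 7.12 and 7.48 in normal pituitary. Cd68, a lysosomal protein of macrophages, had 7.39 in the homozygous sample, 7.98 to 9.27 in heterozygous tumors, and 5.67 and 6.20 in normal pituitary. Csf1r, the receptor that macrophages need to survive, differed least of these, with 7.41 in the homozygous sample, 7.61 to 8.00 in heterozygous tumors, and 7.27 and 7.37 in normal pituitary. Tumor 7-8 was lowest of the heterozygous tumors for Irf8 and for the summed macrophage signal, and the homozygous sample was lower than all of them in both, while Irf8 was highest in tumor 1-2 and the macrophage signal in 3-4. The part of macrophages in the Irf8 result was not tested.

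The other 4 transcription factors were not called in any comparison. Stat2, a transcription factor of the type I response, had a log2 signal of 5.79 in the homozygous sample, 6.42, 6.25, 6.01 and 6.16 in heterozygous tumors, and 5.59 and 5.96 in normal pituitary. Its change in heterozygous tumors was 0.43 ± 0.16 (SE, limma adjusted p = 0.0932), and a second probe set gave -0.25. Irf9, which brings the complex to DNA, spanned only 7.51 to 7.84 over all samples, with the homozygous sample lowest. Irf7, which amplifies type I interferon production, had 5.43 in the homozygous sample, 6.11, 5.94, 5.84 and 5.58 in heterozygous tumors, and 5.74 and 5.31 in normal pituitary, so its groups overlapped. Irf1, an activator of MHC class I genes, had 8.93 in the homozygous sample, 8.84, 8.81, 8.37 and 8.99 in heterozygous tumors, and 8.81 and 8.76 in normal pituitary. Only tumor 5-6 stood below the normal samples for Irf1.

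The IFIT proteins bind viral RNA and block its translation, and their genes lie together on chromosome 19. Ifit2 had a log2 signal of 6.83 in the homozygous sample, 7.78, 7.84, 7.44 and 7.79 in heterozygous tumors, and 6.36 and 6.39 in normal pituitary. The groups did not overlap, and the homozygous sample lay between the others. The change was 1.34 ± 0.14 in heterozygous tumors over normal pituitary (SE, limma adjusted p = 0.00106), 0.46 ± 0.20 in the homozygous sample over normal pituitary (adjusted p = 0.285) and -0.88 ± 0.18 in the homozygous sample over heterozygous tumors (adjusted p = 0.179).

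The relatives of Ifit2 were not called in any comparison. Ifit3 had a log2 signal of 7.60 in the homozygous sample, 7.09, 7.37, 7.40 and 7.29 in heterozygous tumors, and 6.98 and 7.12 in normal pituitary, a change of 0.55 ± 0.18 in the homozygous sample (limma adjusted p = 0.173) and 0.24 ± 0.13 in heterozygous tumors (adjusted p = 0.231). Ifit1, given beside them because its promoter is shown above, had 5.53 in the homozygous sample, 6.17, 6.22, 6.62 and 5.85 in heterozygous tumors, and 5.93 and 6.10 in normal pituitary. The homozygous sample was thus the highest of all samples for Ifit3 and the lowest for Ifit1, and the heterozygous values of both overlapped those of normal pituitary. The 95% interval of the heterozygous change was 1.01 to 1.67 for Ifit2, -0.07 to 0.54 for Ifit3 and -0.27 to 0.68 for Ifit1, so those of Ifit3 and Ifit1 did not reach that of Ifit2. The difference between the genes was not itself tested.

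**Figure D3:**
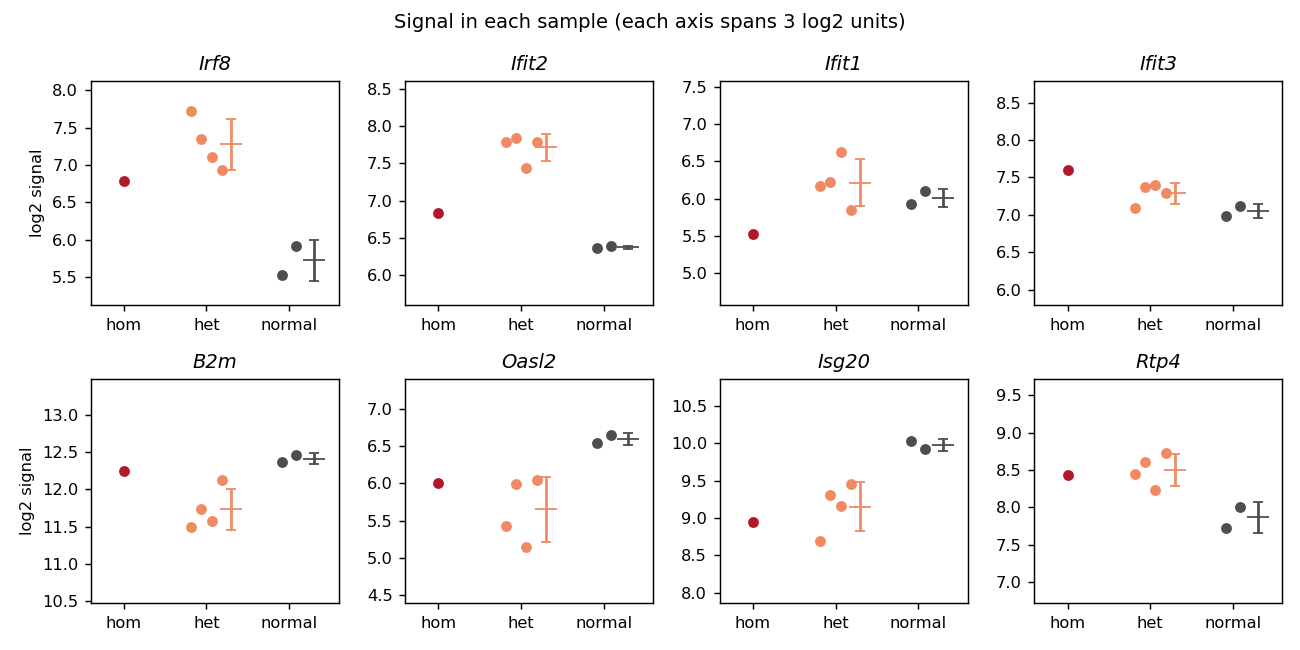
Log2 signal of 8 genes in the homozygous sample (dark red), the 4 heterozygous tumors (orange, 1-2 to 7-8 from left to right) and the 2 normal samples (grey), with the mean and SD of groups of more than 1 sample at their right. Each axis spans 3 log2 units, so distances compare between panels. Ifit2 separates the groups and Ifit1 and Ifit3 do not.

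Of the genes that sense or degrade viral RNA, 3 lay below normal pituitary in all tumor samples. Isg20, an exonuclease, had a log2 signal of 8.95 in the homozygous sample, 8.70, 9.31, 9.16 and 9.45 in heterozygous tumors, and 10.03 and 9.92 in normal pituitary. All tumor samples were below both normal samples, by 1.02 ± 0.29 in the homozygous sample (SE, limma adjusted p = 0.128) and by 0.82 ± 0.21 in heterozygous tumors (adjusted p = 0.0298, under 2-fold). Oasl2, a relative of the oligoadenylate synthetases, had 6.0 in the homozygous sample, 5.43, 5.99, 5.15 and 6.04 in heterozygous tumors, and 6.54 and 6.65 in normal pituitary. Its heterozygous change was -0.94 ± 0.26 (adjusted p = 0.0399, under 2-fold), and without tumor 3-4 or without tumor 7-8 it was called, at -1.05 and -1.07. Over all settings tried, the Oasl2 change ranged from -1.29 to -0.775, and its adjusted p did not stay under 0.05 in every one. Ifih1, which encodes the RNA sensor MDA5, had 8.23 in the homozygous sample, 7.69, 8.08, 7.41 and 8.31 in heterozygous tumors, and 8.46 and 8.58 in normal pituitary. Tumors 1-2 and 5-6 were the low ones for both Oasl2 and Ifih1, and the Ifih1 change of -0.65 ± 0.25 did not pass (adjusted p = 0.0991).

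The rest of that group did not pass the test on the probe sets that stand for the genes. Usp18, which removes ISG15 from proteins, differed by 0.16 in the homozygous sample and 0.49 in heterozygous tumors over normal pituitary. Trim25, a ubiquitin ligase that activates RNA sensing, differed by 0.0 in the homozygous sample and 0.32 in heterozygous tumors. Its 3 probe sets lay between 0.32 and 0.84 there, and the one at 0.84 passed the adjusted p (limma, 0.0105) under 2-fold. Eif2ak2, the RNA-activated kinase PKR, differed by -0.05 in the homozygous sample and 0.13 in heterozygous tumors, and its 3 probe sets spanned 0.13 to 0.96, 2 of them at an adjusted p under 0.05. Oas2, an oligoadenylate synthetase, was level in all samples, at -0.04 in the homozygous sample and -0.01 in heterozygous tumors.

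In the MHC class I group, 0 of 9 genes were called in any comparison. Of all tested genes, 2.73% were called in the homozygous sample and 10.1% in heterozygous tumors over normal pituitary, and 0.276% between the genotypes. With so few genes, 0 calls do not set the group apart. The tumor values lay below normal pituitary for the light chain and mostly above it for the heavy chains. B2m, the light chain shared by all class I molecules, had a log2 signal of 12.24 in the homozygous sample, 11.50, 11.74, 11.58 and 12.12 in heterozygous tumors, and 12.36 and 12.46 in normal pituitary. Every tumor sample was below both normal samples, by 0.17 ± 0.26 in the homozygous sample (SE, limma adjusted p = 0.784) and by 0.68 ± 0.18 in heterozygous tumors (adjusted p = 0.0371, under 2-fold). H2-D1, a heavy chain, had 11.77 in the homozygous sample, 11.50, 11.61, 11.01 and 11.67 in heterozygous tumors, and 11.16 and 11.27 in normal pituitary. All tumor samples but 5-6 were above both normal samples, and the change of 0.55 ± 0.27 in the homozygous sample did not pass (adjusted p = 0.347). H2-K1, the other heavy chain, was at 11.63 in the homozygous sample, 11.39 to 11.51 in heterozygous tumors, and 11.14 and 11.23 in normal pituitary. Class I heavy chains are near copies of each other, so these probe sets may read related genes, and 4 tested probe sets of H2-K1 gave heterozygous changes from -0.28 to 0.26.

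The genes that make and load class I peptides did not pass the test either. Tap1, a chain of the peptide transporter, had a log2 signal of 6.43 in the homozygous sample, 6.88, 6.73, 6.15 and 6.61 in heterozygous tumors, and 5.86 and 6.15 in normal pituitary, with a heterozygous change of 0.59 ± 0.21 (SE, limma adjusted p = 0.0874). Psmb9, an immunoproteasome subunit, had 7.84 in the homozygous sample, 7.94, 8.27, 7.42 and 8.37 in heterozygous tumors, and 7.40 and 7.62 in normal pituitary. In both genes tumor 5-6 lay with the normal samples and the other tumor samples above them. The immunoproteasome subunits Psmb8 and Psmb10, the transporter chain Tap2 and the loading factor Tapbp had heterozygous changes from -0.19 to 0.13 and homozygous changes from -0.14 to 0.47. A second Tapbp probe set gave 0.95 in heterozygous tumors (adjusted p = 0.00864), against -0.10 for the one that stands for the gene, so its direction was not settled.

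Of the other antiviral genes, only Rtp4 passed the adjusted p. Rtp4, an interferon-induced chaperone of membrane receptors, had a log2 signal of 8.43 in the homozygous sample, 8.45, 8.60, 8.23 and 8.72 in heterozygous tumors, and 7.72 and 8.01 in normal pituitary. All tumor samples were above both normal samples, by 0.56 ± 0.24 in the homozygous sample (SE, limma adjusted p = 0.266) and by 0.63 ± 0.17 in heterozygous tumors (adjusted p = 0.0334, under 2-fold). Rsad2, the antiviral enzyme viperin, had 7.67 in the homozygous sample, 7.66, 8.20, 8.19 and 7.73 in heterozygous tumors, and 7.36 and 7.57 in normal pituitary. Its change of 0.48 in heterozygous tumors did not pass (limma adjusted p = 0.116). Its 3 probe sets gave 0.32 to 0.91, and the one at 0.91 passed the adjusted p (0.0252) under 2-fold. Bst2, which tethers budding virus, had 6.74 in the homozygous sample, 6.48, 6.73, 6.61 and 6.77 in heterozygous tumors, and 6.20 and 6.56 in normal pituitary. Xaf1, which promotes cell death, had 8.27 in the homozygous sample, 8.10, 8.55, 7.87 and 8.79 in heterozygous tumors, and 8.48 and 8.56 in normal pituitary. Bst2 and Xaf1 overlapped between groups, and Ifi35 and Parp14, an interferon-induced ADP-ribosyltransferase, differed by -0.12 and 0.02 in the homozygous sample and by -0.06 and -0.12 in heterozygous tumors.

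The interferon-inducible GTPases, which attack the membranes of intracellular pathogens, were not called, and they differed in direction among themselves. Gbp2 had a log2 signal of 7.16 in the homozygous sample, 5.57, 6.72, 5.93 and 7.06 in heterozygous tumors, and 6.40 and 6.72 in normal pituitary. Gbp3 had 7.31 in the homozygous sample, 6.15, 6.85, 6.28 and 7.04 in heterozygous tumors, and 7.11 and 7.29 in normal pituitary. Both were low in tumors 1-2 and 5-6 and highest in the homozygous sample. Igtp had 8.18 in the homozygous sample, 7.54, 7.79, 7.44 and 8.10 in heterozygous tumors, and 8.36 and 8.24 in normal pituitary, a heterozygous change of -0.58 ± 0.19 (SE, limma adjusted p = 0.0675). Irgm1 had 8.04 in the homozygous sample, 7.92, 8.04, 7.81 and 8.31 in heterozygous tumors, and 7.58 and 7.79 in normal pituitary. It was the only GTPase of the 4 above normal pituitary in all tumor samples. Gbp2 had the widest spread of the set among heterozygous tumors, 2.81-fold between tumors 1-2 and 7-8, followed by Psmb8 with 2.22-fold.

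The spread among heterozygous tumors had a common order across the set. Tumor 5-6 was the lowest of the 4 for 21 of 34 genes (61.8%), against 26.9% of all tested genes, and tumor 7-8 was the highest for 19 (55.9%), against 28.9%. Tumors 3-4 and 7-8 were both above the other 2 for 19 genes (55.9%), against 22.2% of all tested genes, and tumors 5-6 and 7-8 held that place together for 0 genes, against 15.9%. By role, the pair 3-4 and 7-8 was on top for all 4 GTPases, for 5 of 9 MHC class I genes, 5 of 6 other antiviral genes, 4 of 10 genes of the IFIT and RNA-sensing group and 1 of 5 transcription factors. Irf8 was among those outside the pattern, with tumor 1-2 highest and 7-8 lowest. Genes of a set are not independent, so these shares describe 4 tumors and carry no test.

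Other genes also differed among the heterozygous tumors. Xist, the RNA that coats the inactive X chromosome, had log2 signals of 11.20 in the homozygous sample, 4.58, 10.93, 5.0 and 11.25 in heterozygous tumors, and 5.07 and 4.57 in normal pituitary, so it was high in tumors 3-4 and 7-8. Tshb, the thyrotropin subunit of normal gland, had 11.10 in the homozygous sample, 6.78, 8.30, 8.91 and 10.57 in heterozygous tumors, and 12.61 and 12.47 in normal pituitary. Tumor 7-8 was the highest of the heterozygous tumors for Tshb and 1-2 the lowest, but the 7 hormone genes did not share 1 order. Fshb, the follitropin subunit, had 8.75 in the homozygous sample, 5.44, 6.29, 9.32 and 7.43 in heterozygous tumors, and 13.06 and 12.96 in normal pituitary. Prl, prolactin, had 14.20, 14.81, 13.91 and 14.94 in heterozygous tumors, and Gh, growth hormone, had 13.32, 14.30, 14.25 and 14.78. Prl and Gh thus had tumors 3-4 and 7-8 above 1-2 and 5-6, and Pomc, Cga, Lhb, Tshb and Fshb did not. The summed linear signal of 4 tested markers of posterior lobe and folliculostellate glia was 531.4 in the homozygous sample, 229.2, 388.9, 277.2 and 367.8 in heterozygous tumors, and 1072 and 1235 in normal pituitary. That of 6 endothelial markers was 725.9 in the homozygous sample, 419.8, 503.6, 413.1 and 534 in heterozygous tumors, and 680.8 and 657 in normal pituitary. Both sums had tumors 3-4 and 7-8 above 1-2 and 5-6, like most genes of the set. Of the single markers, Kdr, Tek, Emcn, Aldh1a1 and Aqp4 had that order, and Pecam1, Cdh5, Cldn5, S100b and Slc1a3 did not. With Xist signal added to the model, Irf8 and Ifit2 were still called in heterozygous tumors, and Isg20 and Oasl2 were called lower. Xist, taken here as a marker of sex, split the heterozygous tumors like most genes of the set, with 3-4 and 7-8 above 1-2 and 5-6. Its level in the homozygous sample was like that of tumors 3-4 and 7-8, and both normal samples were like 1-2 and 5-6. A difference between the homozygous sample and normal pituitary alone therefore does not separate genotype from sex. The part of sex and of hormone, glial and endothelial cells in the order of the tumors was not tested.

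**Figure D4:**
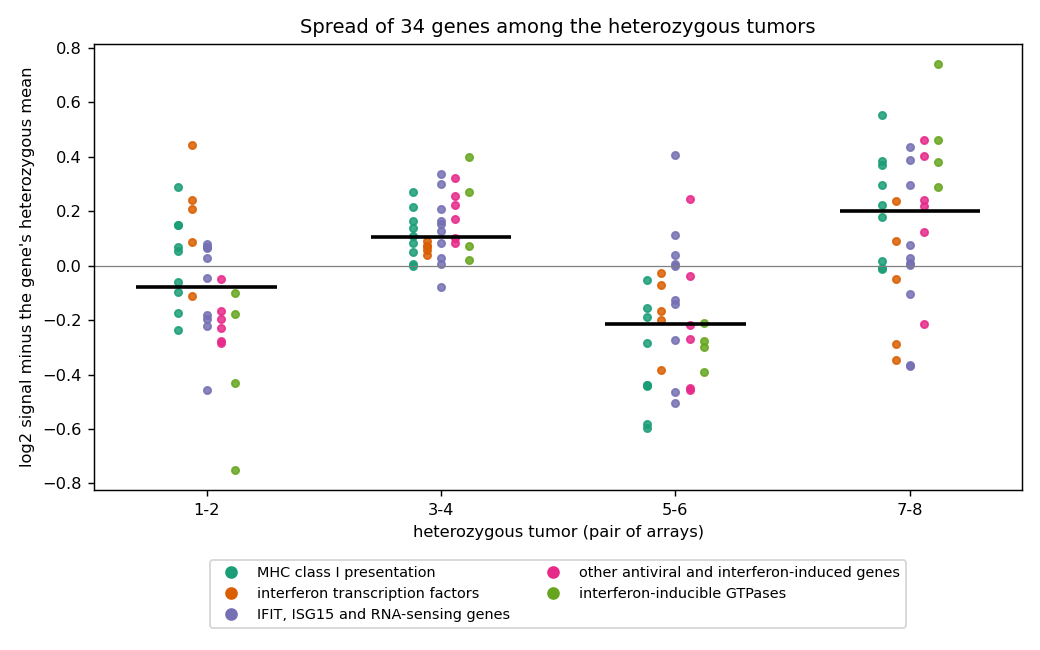
Log2 signal of each of the 34 tested genes minus its mean over the heterozygous tumors, by tumor, with colours for role groups and black bars for the median of the genes. The medians of tumors 3-4 and 7-8 lie above 0 and those of 1-2 and 5-6 below it, and Gbp2 gives the highest point in 7-8 and the lowest in 1-2.

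Seen by sample, the set as a whole stayed near normal pituitary while the macrophage markers did not. The median difference of the 34 genes from the normal mean was 0.0659 in the homozygous sample, 0.0777, 0.232, -0.0469 and 0.24 in heterozygous tumors, and -0.0656 and 0.0656 in normal pituitary. The same median for the 14 macrophage markers was 0.846 in the homozygous sample, 1.39, 1.81, 1.41 and 1.21 in heterozygous tumors, and -0.11 and 0.11 in normal pituitary. The order of the tumors differed between the lists, with tumor 7-8 highest for the interferon and MHC class I set and lowest of the heterozygous tumors for macrophage markers.

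**Figure D5:**
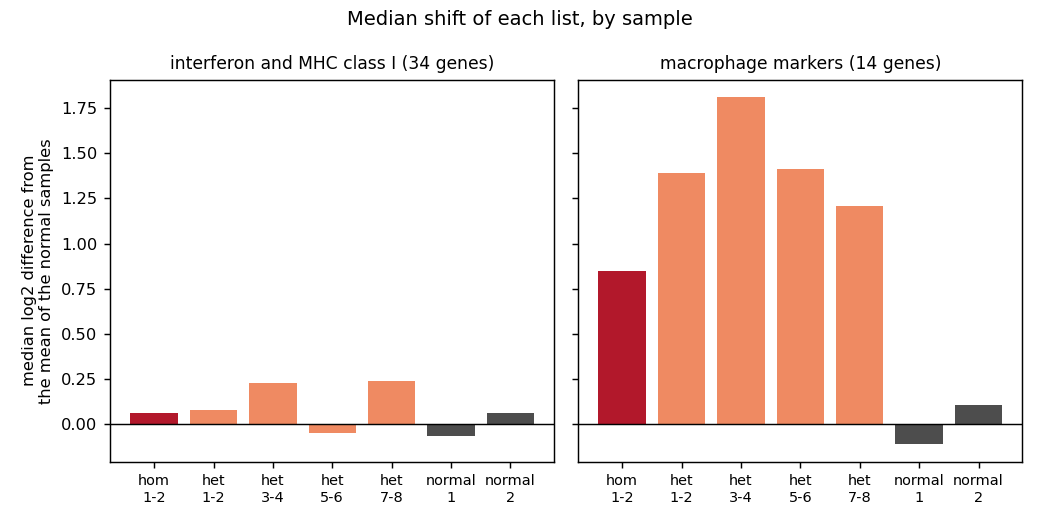
Median log2 difference from the mean of the normal samples, by sample, for the 34 interferon and MHC class I genes (left) and for 14 macrophage markers (right), on the same axis. All tumor bars on the right stand at 0.846 or more, and all bars on the left lie between -0.0656 and 0.24.

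Markers of lymphocytes and dendritic cells were mostly near or under the threshold of the filter. Of the T and NK cell markers 3 were tested, and Cd3e, which defines T cells, was at 5.70 in the homozygous sample, 5.43 to 5.65 in heterozygous tumors, and 5.55 and 5.67 in normal pituitary. Cd3d, another chain of the T cell receptor complex, was at 6.13 in the homozygous sample, 5.34, 5.07, 5.26 and 4.90 in heterozygous tumors, and 4.84 and 5.08 in normal pituitary. Its change in the homozygous sample over normal pituitary was 1.17 ± 0.22 (SE). Over the 8 T and NK cell markers on the array, tested or not, the median difference from the normal mean was 0.315 in the homozygous sample. In heterozygous tumors that median was -0.0394 to 0.08. No B cell marker passed the filter, and Cd79a was at 4.76 to 5.05. Of the dendritic cell markers only Itgax was tested, and it was called higher in heterozygous tumors (1.08 ± 0.30, adjusted p = 0.0400), with 4.32 in the homozygous sample, 6.05, 5.17, 5.63 and 4.90 in heterozygous tumors, and 4.31 and 4.41 in normal pituitary. Siglech was at 5.0 to 5.54 in all samples.

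Of 6 tested endothelial markers, 0 were called in the homozygous sample over normal pituitary and 1 was called lower in heterozygous tumors, where all 6 changes were below 0 (median -0.373). Of all tested genes, 2.73% were called in either direction in the homozygous sample, and 4.5% were called lower in heterozygous tumors. The called endothelial gene was Tek, an angiopoietin receptor, with a log2 signal of 6.94 in the homozygous sample, 5.16, 5.53, 5.48 and 5.65 in heterozygous tumors, and 7.08 and 6.67 in normal pituitary (heterozygous change -1.42 ± 0.18, SE, limma adjusted p = 0.00208). Pecam1 differed least of the 6 in heterozygous tumors, with 5.92 in the homozygous sample, 5.27 to 5.71 in heterozygous tumors, and 5.65 and 5.53 in normal pituitary.

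Of 62 tested genes of the pathway outside the set, in 4 lists, 3 were called in the homozygous sample over normal pituitary, all higher, against 2.73% of all tested genes. In heterozygous tumors 3 were called higher and 1 lower, against 5.57% and 4.5% of all tested genes, and between the genotypes 1 was called, against 0.276%. Of 11 tested interferon, receptor and signalling genes, 1 was called in each genotype over normal pituitary, and it was Socs3, a feedback inhibitor of cytokine signalling. Its log2 signal was 9.98 in the homozygous sample, 10.34, 10.58, 10.51 and 10.17 in heterozygous tumors, and 8.70 and 8.79 in normal pituitary, a change of 1.23 ± 0.20 (SE, limma adjusted p = 0.0305) in the homozygous sample and 1.65 ± 0.14 (adjusted p = 0.000571) in heterozygous tumors. Jak1, a kinase of the interferon receptors, was lower by 0.80 in the homozygous sample (adjusted p = 0.0496) and by 0.82 in heterozygous tumors (adjusted p = 0.00292), under 2-fold in both. The interferon genes Ifnb1 and Ifng were under the filter, at 4.05 to 4.45 and 2.92 to 3.31. Of 11 tested genes that sense nucleic acids and of 9 that load and trim class I peptides, 0 were called in any comparison.

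Of 31 other interferon-induced genes, 2 were called higher in the homozygous sample over normal pituitary (Ifi27l2a and Ifi30), and the same 2 were higher and Tor3a lower in heterozygous tumors. Ifi27l2a had a log2 signal of 8.83 in the homozygous sample, 10.08, 10.16, 10.18 and 10.20 in heterozygous tumors, and 7.28 and 7.40 in normal pituitary. The groups did not overlap, and Ifi27l2a was the one gene of these lists called between the genotypes (-1.32 ± 0.14, SE, limma adjusted p = 0.0143), the homozygous sample lying between the others as it did for Ifit2. Its change over normal pituitary was 1.49 (adjusted p = 0.00811) in the homozygous sample and 2.81 (adjusted p = 9.41e-05) in heterozygous tumors. Ifi30, a lysosomal reductase of antigen-presenting cells, had 9.39 in the homozygous sample, 9.51, 9.43, 9.23 and 9.56 in heterozygous tumors, and 8.38 in both normal samples. Tor3a, an interferon-induced ATPase, changed by -0.60 ± 0.35 in the homozygous sample (adjusted p = 0.427) and by -1.20 ± 0.25 in heterozygous tumors (adjusted p = 0.0145). The comparisons with normal pituitary share the same 2 normal samples.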

How the data were processed

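Total RNA was measured on Affymetrix Mouse Genome 430 2.0 arrays. The deposited values are log2 signals that the authors made by Robust Multichip Average (RMA), which corrects background, quantile-normalizes the arrays and summarizes probes into probe sets. Software for RMA is Affymetrix Expression Console per the labels and GeneSpring GX per the study's methods. Quantile normalization forces a common distribution, so changes are relative to the bulk of genes. Neither detection calls nor scan dates were used.

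After removal of 64 control probe sets, a probe set was tested at 5.74 (the median of all values) or more in at least 2 arrays (24486 of 45037). Limma 3.58.1 in R 4.3.3 was fitted to 7 samples of 3 groups, with the arrays of a tumor pair averaged and 4 residual degrees of freedom, and p-values were adjusted by Benjamini-Hochberg over all tested probe sets. As in the study, a call required more than a 2-fold difference and an adjusted p below 0.05. The 12 arrays limit the precision. Pairs were found from array correlations, not labels.

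All genes of the set are named. Values by sample are given for called genes and for up to 4 further genes per role group with the largest change against normal pituitary, and other lists are given by counts with called genes named. Members and lists were chosen with earlier results of these data known. Alternatives changed the treatment of pairs, filter, threshold, normalization, probe set, empirical Bayes, replicates and a Xist covariate. Promoters are RefSeq sequences matched by symbol.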

Additional observations from a re-analysis of the deposited data

Results flagged for a closer look

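Among the 34 tested genes, 2 had a heterozygous tumor that stood far from the others by Dixon's criterion. By chance it picks out about 5% of groups, or 1.7 of these 34. Tap2, a chain of the peptide transporter, was lowest in heterozygous tumor 5-6 at a log2 signal of 7.19, with the other 3 tumors at 7.74 to 7.81. Ifit2 was lowest in the same tumor at 7.44, with the others at 7.78 to 7.84, and it was still above both normal samples, at 6.36 and 6.39.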

How the results depend on the processing

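Irf8 and Ifit2 were called higher in heterozygous tumors in all 20 settings, with log2 changes of 1.35 to 1.99 and of 1.24 to 1.43. The 1.99 of Irf8 came from the replicate block. In the setting with the probe set of lowest p, the change is the median of the gene's probe sets, and the Irf8 probe set called there changed by 1.145. No called gene changed direction in these settings. In the homozygous sample over normal pituitary, 2 genes were called (Irf8 higher, Isg20 lower), against 0, with 12 arrays as separate samples, with the tumor pair as a random block (correlation 0.844) and with the replicate block. Calls over all tested probe sets also rose in those settings, from 571 to 1203, 940 and 1413. In heterozygous tumors the count of 2 became 6 with the adjusted p alone, 5 with the replicate block and 4 with Xist as a covariate. Over all tested probe sets, the count of 2126 became 5423, 2806 and 2430. The adjusted p of B2m, Oasl2, Isg20 and Rtp4 was under 0.05 in the main setting but not in every setting. The replicate block gave 2 calls between the genotypes (Gbp2 and Gbp3, higher in the homozygous sample by 1.59 and 1.17), against 0. Calls over all tested probe sets went from 61 to 1283 there. Numbers above 2 occur only among heterozygous arrays, so the heterozygous side of that block rested on tumor 1-2 alone, with 2 residual degrees of freedom. Its calls therefore do not compare genotypes across tumors. Same-numbered samples correlated at -0.11 to 0.102 in their deviations. In a group of 2 arrays the deviations mirror each other, so this cannot show whether the numbers carry a pairing. The replicate block used 12 arrays as separate samples. The median change of the set moved to -0.11 in the homozygous sample with the Xist covariate, and between the genotypes to -0.167 with that covariate and 0.103 with the replicate block, and between the genotypes it was 0.0102 without tumor 3-4 and 0.0608 without tumor 7-8, so the homozygous and between-genotype medians changed sign. Leaving out 1 sample gave 2 to 3 calls in heterozygous tumors, and 0 in both comparisons of the homozygous sample. The added call was Oasl2, lower, without tumor 3-4 or 7-8. The homozygous group rests on 1 sample and normal pituitary on 2. For 11 genes with several tested probe sets, 3 (H2-K1, Stat2 and Tapbp) differed in sign between them in heterozygous tumors. Of 19 further probe sets of the set, 6 were higher and 0 lower at an adjusted p under 0.05 there (limma). Among all 24486 tested probe sets, 3036 were higher and 2387 lower at that threshold.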

Other observations

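A probe set shared by Isg15, the ubiquitin-like protein of the interferon response, and Gm9706 was not counted for either gene. Its log2 signal was 6.92 in the homozygous sample, 6.97, 7.32, 7.01 and 6.84 in heterozygous tumors, and 6.10 and 6.26 in normal pituitary. The change over normal pituitary was 0.74 in the homozygous sample (limma adjusted p = 0.136) and 0.86 ± 0.15 in heterozygous tumors (SE, adjusted p = 0.00841, under 2-fold).

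Iigp1, an interferon-inducible GTPase outside the set, had a log2 signal of 7.63 in the homozygous sample, 5.15, 5.97, 6.05 and 5.87 in heterozygous tumors, and 5.75 and 6.05 in normal pituitary. It did not pass in the homozygous sample (1.73 ± 0.37, limma adjusted p = 0.0568). Ifi47, another such GTPase, had 7.47 in the homozygous sample, 6.38, 7.10, 6.61 and 7.00 in heterozygous tumors, and 6.20 and 6.51 in normal pituitary (1.11 ± 0.31, adjusted p = 0.121). Cxcl9, a chemokine induced by interferon gamma, was under the filter, at 5.28 in the homozygous sample, 4.08 to 4.39 in heterozygous tumors, and 4.31 and 4.38 in normal pituitary. For these 3 genes, picked after their values were seen, the homozygous sample was the highest of all samples, as it was for Gbp2, Gbp3 and the T cell marker Cd3d. Related GTPases did not share this. The homozygous sample was below both normal samples for Gbp6, Gbp7 and Igtp, and within the range of the other samples for Irgm1 and Irgm2.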
